A study of Mus musculus with 8 samples.

Results

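The genes described here are those of major histocompatibility complex (MHC) class I antigen presentation and of the proteasome, taken as the rows of the deposited count table whose symbol equals 1 of 40 listed names. All 40 names were found, each on 1 row, among 48440 genes. They were read in RNA-seq libraries of CD11b+ F4/80+ macrophages sorted from the pancreatic islets of 16-week-old male wild-type C57BL/6J mice. HFD mice ate a high-fat diet with 45% fat, 20% protein and 35% carbohydrate at 19.67 kJ/g for 8 weeks from 8 weeks of age, and chow mice ate a standard diet with 8% fat, 21% protein and 71% carbohydrate at 10.88 kJ/g for the same time. Each diet had 4 libraries, HFD replicates 5 to 8 and chow replicates 1 to 4, and each library pooled extracts of 2 mice, so the library is the unit of replication. Nothing names separate sorting or sequencing batches, so a batch that runs with diet cannot be told apart from it.

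Class I molecules sit on nearly all nucleated cells and show CD8 T cells short peptides from proteins made inside the cell. The proteasome cuts those proteins, the TAP transporter carries the peptides into the endoplasmic reticulum, ERAP1 trims them and tapasin helps load them onto a heavy chain paired with beta-2 microglobulin. The proteasome is a barrel of alpha and beta rings capped by a regulatory particle that unfolds tagged proteins. Interferon-gamma induces immune versions of its catalytic beta subunits and the PA28 cap, and NLRC5 drives transcription of the class I genes.

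Promoter windows, running from 250 bases before to 50 bases after the annotated start, were found in RefSeq (GRCm38.p6) for 33 of the 40 genes, as 37 windows. Those without one were Tap2, Nlrc5, Psmc3, Psmb7, Psmb1, Psmb2 and Psmd3. An interferon-stimulated response element, searched on either strand as GAAA, any 2 bases and GAAA, was present in 6 of these windows, or 16.2%, against 3.44% of 32851 windows of the same length. The genes were B2m, H2-T23, Erap1, Psme1, Psmd4 and Psmb3. The 4 that encode class I chains, a trimming enzyme and a PA28 subunit are shown. They are presentation genes whose windows match the interferon element and whose values are given below. Capitals mark the element, which appears as its reverse complement in 3 of them. Its first base lies at position -139 in B2m (chr2:122147437-122147736, plus strand), -124 in H2-T23 (chr17:36032652-36032951, minus strand), -4 in Erap1 (chr13:74639603-74639902, plus strand) and 10 in Psme1 (chr14:55578244-55578543, plus strand), with the start base counted as 1 and the base before it as -1.
B2m: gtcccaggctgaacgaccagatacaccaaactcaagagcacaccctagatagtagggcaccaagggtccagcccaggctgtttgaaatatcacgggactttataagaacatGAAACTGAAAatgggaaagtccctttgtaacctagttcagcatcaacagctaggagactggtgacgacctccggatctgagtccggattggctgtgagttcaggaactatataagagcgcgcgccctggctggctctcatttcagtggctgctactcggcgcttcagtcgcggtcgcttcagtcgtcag
H2-T23: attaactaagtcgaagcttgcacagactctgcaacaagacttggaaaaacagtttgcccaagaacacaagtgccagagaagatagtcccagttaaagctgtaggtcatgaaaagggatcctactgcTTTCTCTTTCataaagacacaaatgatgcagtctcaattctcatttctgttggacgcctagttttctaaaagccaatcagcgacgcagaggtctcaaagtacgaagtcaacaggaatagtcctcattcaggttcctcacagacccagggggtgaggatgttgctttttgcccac
Erap1: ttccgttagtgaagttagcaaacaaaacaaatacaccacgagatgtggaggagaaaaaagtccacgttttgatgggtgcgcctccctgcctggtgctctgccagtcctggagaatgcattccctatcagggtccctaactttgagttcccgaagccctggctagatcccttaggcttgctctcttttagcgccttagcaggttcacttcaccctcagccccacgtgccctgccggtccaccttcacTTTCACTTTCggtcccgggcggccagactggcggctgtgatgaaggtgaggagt
Psme1: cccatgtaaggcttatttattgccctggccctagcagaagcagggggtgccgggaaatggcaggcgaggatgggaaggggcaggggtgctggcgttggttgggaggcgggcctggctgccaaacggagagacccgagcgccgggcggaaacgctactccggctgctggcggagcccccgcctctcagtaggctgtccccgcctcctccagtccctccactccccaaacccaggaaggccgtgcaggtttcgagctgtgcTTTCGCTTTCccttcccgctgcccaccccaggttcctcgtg
The other motifs searched on both strands were a gamma-activated site, TTCNNNGAA, in 8.11% of the windows of these genes and 8.30% of all windows; an NF-kB type match, searched as GGGA, any 4 bases and CC, in 29.7% and 20.7%; and the site TGACG, bound by ATF and CREB factors, in 51.4% and 20.8%. A match in a window is a description of its letters and not a bound site. The absence of a match to these strings does not show that a gene lacks the element.

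Library totals ran from 4532499 to 5917922 counts in HFD and from 4288661 to 6391245 in chow. Levels are CPM, the counts scaled to the effective size of the library, and a count of 0 in a library allows up to 0.468 to 0.708 CPM. The 40 genes took 0.513% to 0.630% of the counts in HFD and 0.526% to 0.678% in chow. Summed transcripts of the macrophage list, with Adgre1, Itgam and Csf1r, were at 5380 to 5981 CPM in HFD and 5922 to 6785 CPM in chow. The T cell genes Cd3e, Cd3g, Cd8b1, Lck and Cd2, 5 of 10 in that list, and the B cell genes Cd79a, Pax5, Fcer2a and Blk had 0 counts in all 8 libraries. The summed list levels were 9.84 to 49.9 CPM in HFD and 10.8 to 48.3 CPM in chow for T cells, and 215 to 315 CPM in HFD and 251 to 458 CPM in chow for B cells, most of it from Ighm. Stellate and fibroblast transcripts, of which none of 10 was at 0 in every library, were together at 424, 285, 233 and 106 CPM in the 4 HFD libraries and at 24.04 to 133 CPM in chow. The collagens Col1a1, Col1a2 and Col3a1 were at 30.8 to 144 CPM each in HFD replicates 5 to 7 and at most 1.41 CPM in HFD replicate 8 and 1.89 CPM in chow, while Rgs5 gave most of the sum in HFD replicate 8 and in chow replicates 2 to 4. Acinar transcripts were at 1107 CPM in HFD replicate 7 and 34.6 to 70.9 CPM in the other HFD libraries, and in chow at 1094 CPM in replicate 3, 2278 CPM in replicate 4 and 0.225 to 1.87 CPM in the others. Endocrine transcripts were at 902 to 1789 CPM in HFD and 436 to 1745 CPM in chow, and dendritic cell transcripts at 163 to 292 CPM in HFD and 279 to 332 CPM in chow. The part of these cells in the results below was not tested beyond the covariate fit named there, and in such bulk samples fewer cells of a type and less RNA per cell cannot be told apart. The stellate and fibroblast sum used as that covariate was highest in HFD replicates 5 to 7, so the fit separates diet from these transcripts poorly.

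None of the 40 genes passed the test. All 40 were above the filter on low counts, and edgeR's quasi-likelihood test called 0 of them at an adjusted p of 0.05, beside 0.00% of the 10129 genes tested, with adjusted p-values of 0.89 or more for these genes. At an unadjusted p under 0.05 there were 3 of the 40, Psme1 and Psma5 lower and Psmc1 higher in HFD, beside 5.35% of all genes (542 of 10129), of which 2.61% were higher and 2.74% lower. DESeq2 called 28 genes and limma-voom 1. Neither called any of the 40, of which DESeq2 gave no adjusted p for Tap2 and Psmd4. The sign of the difference was positive for 18 genes and negative for 22, beside 4925 positive and 5204 negative over all 10129 genes tested. The median log2 fold change (HFD over chow) was -0.06 beside -0.02 over all genes tested. Every HFD library lay on 1 side of every chow library for 4 of the 40, H2-T23, Psme1 and Psma5 below and Psmc1 above, beside 3.39% of all genes, 1.68% above and 1.71% below. The 6 genes with a match to the interferon element had both signs. Their log2 fold changes were -0.10 for B2m, -0.60 for H2-T23, 0.48 for Erap1, -0.55 for Psme1, 0.29 for Psmd4 and -0.75 for Psmb3.

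What the data could exclude depended on the level of each gene. For the 4 genes that averaged over 100 CPM, B2m, H2-D1, H2-K1 and Psme1, the standard error (SE) of the log2 fold change was 0.12 to 0.25. It was 0.35 to 0.68 for the 24 genes at 20 to 100 CPM and 0.72 to 1.4 for the 12 genes under 20 CPM. The 95% interval of the fold change lay within 2-fold either way for 6 of the 40 genes, or 15.0%, namely H2-K1, H2-D1, B2m, Tapbp, Psma3 and Psmd1, against 15.8% of all genes tested. For the other 34, a 2-fold difference in at least 1 direction was inside the interval.

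**Figure D1:**
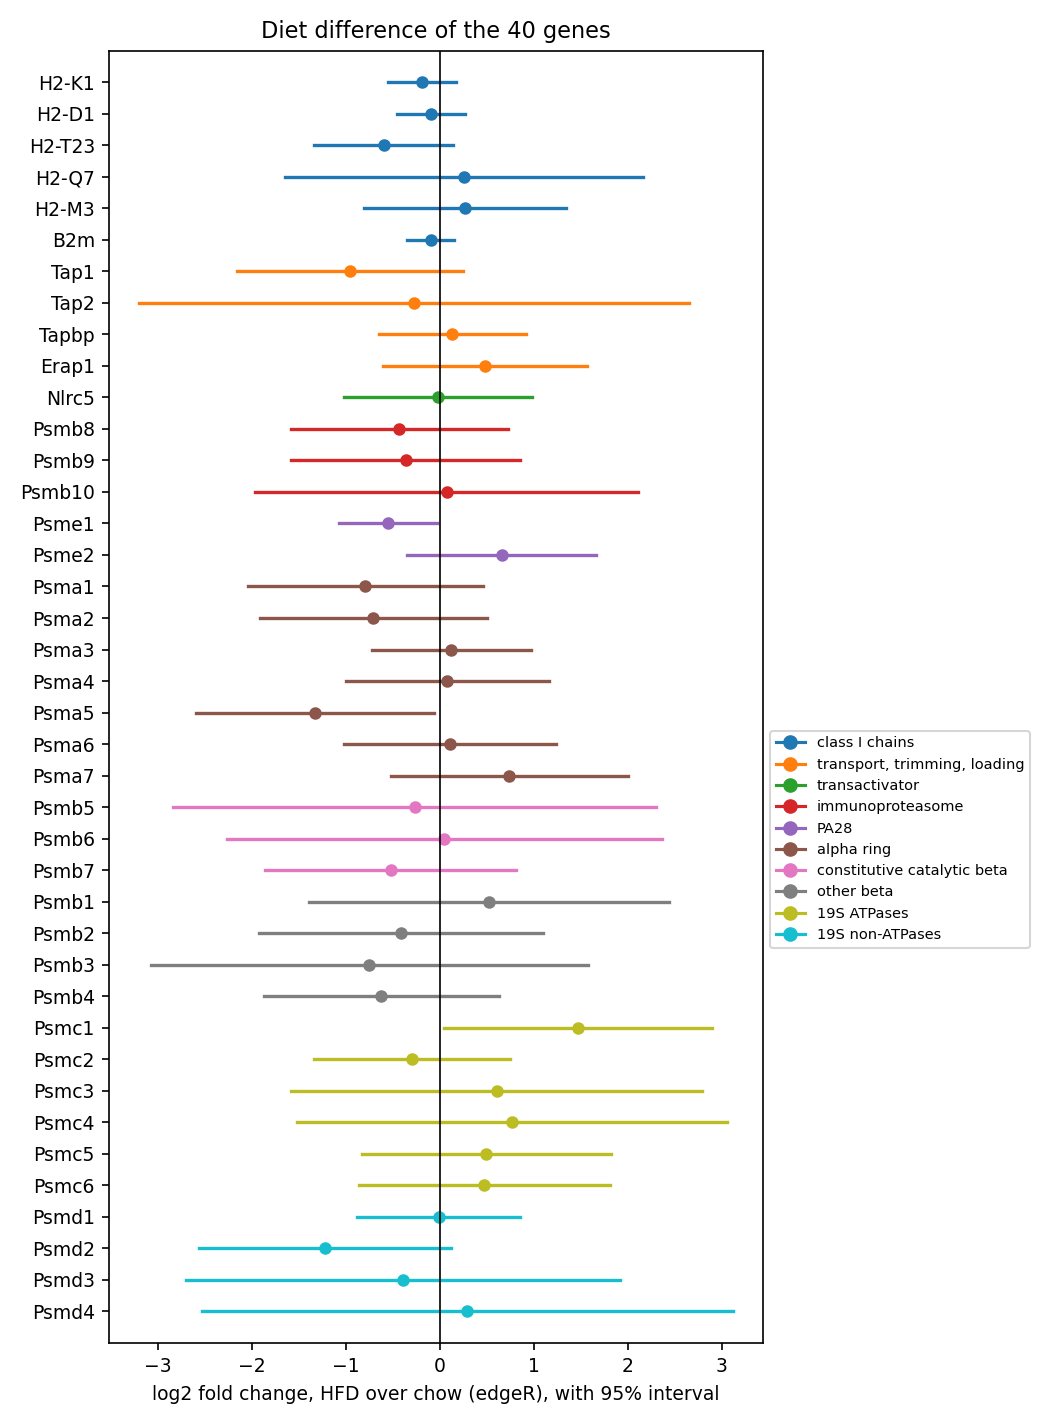
Log2 fold change (HFD over chow, horizontal axis) of each of the 40 genes with a 95% interval derived from the edgeR test, coloured by role, n = 4 libraries per diet. The intervals are narrow for B2m, H2-K1 and H2-D1 and cross 0 for all genes but Psme1, Psma5 and Psmc1, none of which passed the threshold over all genes tested.

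The classical class I transcripts were abundant and varied little. B2m (chromosome 2, 122147686 to 122153083), the light chain shared by all class I molecules, was at 3271, 3214, 3304 and 3801 CPM in the HFD libraries (replicates 5 to 8) and at 3554, 3598, 4331 and 3050.5 CPM in chow replicates 1 to 4. The HFD libraries all lay inside the chow range, and the log2 fold change was -0.10 (SE 0.12, 95% interval -0.35 to 0.15; edgeR adjusted p = 0.99). Per kilobase of exon B2m ranked 8th of all genes tested, and its level was 17.8 times that of H2-D1 in HFD and 17.8 times in chow. H2-D1 (chromosome 17, 35262730 to 35267499), a classical peptide-presenting heavy chain, was at 635, 464, 703 and 489 CPM in HFD and 628, 626, 549 and 645 CPM in chow, with a log2 fold change of -0.10 (95% interval -0.46 to 0.26). H2-K1 (chromosome 17, 33996017 to 34000347), the other classical heavy chain of this strain, was at 473, 434, 571 and 451 CPM in HFD and 504, 535, 669 and 490.2 CPM in chow. For H2-K1, 3 of 4 HFD libraries were below the lowest chow library, and HFD replicate 7 was inside the chow range, with a log2 fold change of -0.19 (95% interval -0.55 to 0.17). The 95% intervals of the fold ran from 0.787 to 1.11 for B2m, 0.729 to 1.2 for H2-D1 and 0.683 to 1.13 for H2-K1, so differences of 2-fold in either direction lay outside them.

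The nonclassical chains were lower and less even. H2-T23 (chromosome 17, 36029773 to 36032855) encodes Qa-1, which presents leader peptides of other class I chains to NK cell receptors. It was at 64.0, 58.9, 60.7 and 71.9 CPM in HFD and at 76.8, 149, 85.8 and 74.6 CPM in chow. The groups did not overlap, although HFD replicate 8 and chow replicate 4 lay close together, and the log2 fold change of -0.60 (SE 0.35, edgeR adjusted p = 0.99) was -0.31 without chow replicate 2, the highest library. H2-M3 (chromosome 17, 37270220 to 37274484), which presents N-formyl peptides of bacteria and mitochondria, was at 54.4, 33.7, 68.9 and 37.8 CPM in HFD and 14.2, 41.1, 68.6 and 38.0 CPM in chow, and the diets overlapped. H2-Q7 (chromosome 17, 35439155 to 35443773), a Qa-2 chain, was at 3.77, 34.6, 13.3 and 5.02 CPM in HFD and 8.54, 14.4, 17.2 and 7.32 CPM in chow, so HFD libraries were both the highest and the lowest. Of the 50-base words in the transcripts of H2-Q7, 26.5% also occur in another gene, against 9.63% for H2-K1, 12.8% for H2-D1, 14.5% for H2-T23, 0.576% for H2-M3 and 0 for B2m, so reads could be divided among class I chains. When the 11 H2-K, H2-D, H2-Q and H2-T genes with counts were summed to 1 feature, its level was 1231, 1066, 1492 and 1080 CPM in HFD and 1360, 1429, 1411 and 1306 CPM in chow. The log2 fold change of this sum was -0.18 (SE 0.14, 95% interval -0.47 to 0.11).

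**Figure D2:**
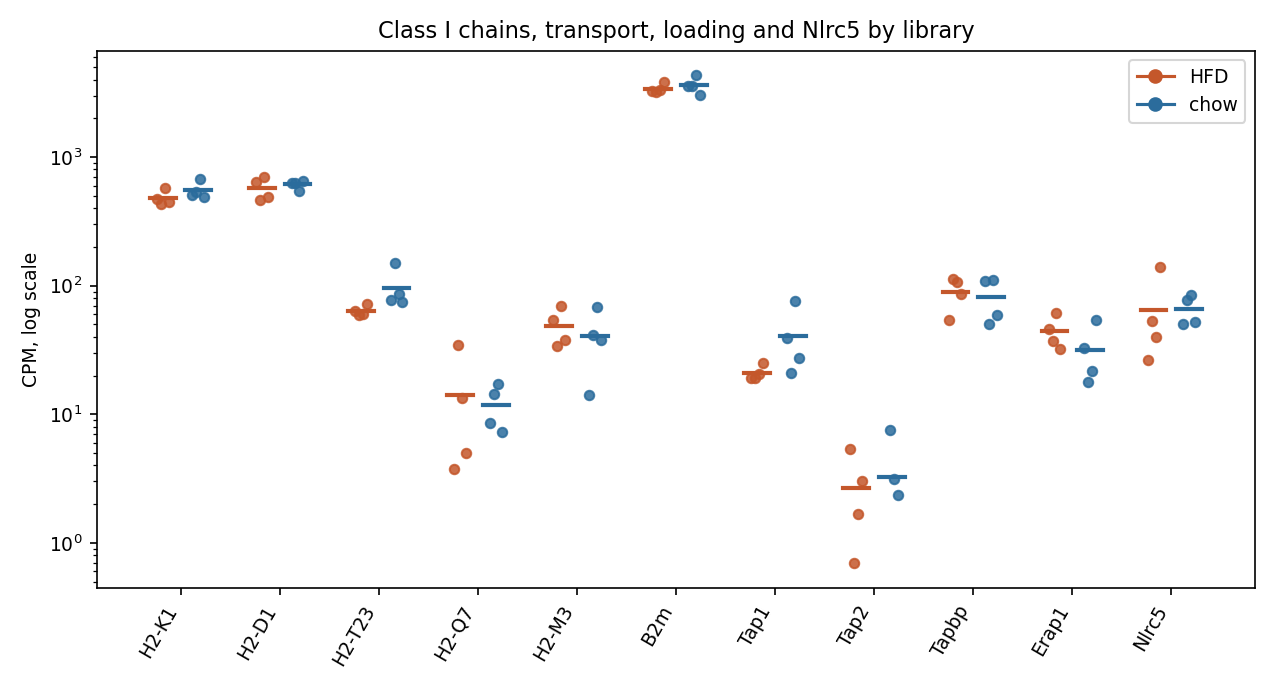
CPM on a log scale for the class I chains, the transport, trimming and loading genes and Nlrc5, with 1 point per library (HFD left, chow right, n = 4 each) and a bar at the mean. B2m, H2-K1 and H2-D1 stand well above the rest with tight points, and chow replicate 1 is not drawn for Tap2, where it had 0 counts.

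Transport, trimming and loading genes had no common direction. Tap1 (chromosome 17, 34187553 to 34197225), the first subunit of the peptide transporter, was at 19.1, 19.1, 20.7 and 25.1 CPM in HFD and 38.9, 20.8, 75.9 and 27.6 CPM in chow. Its HFD libraries were close together and 3 of 4 were below the lowest chow library, with a log2 fold change of -0.96 (SE 0.57, edgeR adjusted p = 0.99) that was -0.47 without chow replicate 3. Tap2 (chromosome 17, 34203527 to 34216321), the second subunit, was near the floor, at 5.36, 0.695, 1.69 and 3.01 CPM in HFD and 0, 7.49, 3.11 and 2.36 CPM in chow. Tapbp (chromosome 17, 33915899 to 33929292), which encodes tapasin, was at 53.8, 113, 106 and 86.4 CPM in HFD and 107.8, 50.7, 110.1 and 58.8 CPM in chow, a log2 fold change of 0.13 (95% interval -0.65 to 0.91). Erap1 (chromosome 13, 74639568 to 74693201), the aminopeptidase, was at 45.9, 37.0, 61.1 and 32.1 CPM in HFD and 32.8, 17.8, 21.6 and 54.0 CPM in chow. The Erap1 groups overlapped and its log2 fold change was 0.48 (SE 0.52), between 0.28 without HFD replicate 7 and 0.86 without chow replicate 4. Nlrc5 (chromosome 8, 94434356 to 94527272), the class I transactivator, was at 26.2, 53.5, 39.8 and 140.4 CPM in HFD and 49.9, 76.7, 85.01 and 51.9 CPM in chow. HFD replicate 8 was the highest and HFD replicate 5 the lowest of all 8 libraries, and the log2 fold change was -0.02 (SE 0.48). Tap1 and Psmb9 lie head to head on opposite strands and share 212 exon bases, and Erap1 shares 834 with Cast, so with no strand information stated those reads cannot be assigned with certainty.

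Among the interferon-inducible proteasome genes, the PA28 subunits differed in sign. Psme1 (chromosome 14, 55578123 to 55581529), the PA28 alpha subunit of the cap that opens the proteasome to release peptides, was at 101.5, 168, 196 and 151 CPM in HFD and at 249.8, 234, 211 and 209.8 CPM in chow. Every HFD library was below every chow library, with 154 ± 39.7 CPM in HFD and 226 ± 19.3 CPM in chow (SD, n = 4). Its log2 fold change of -0.55 (SE 0.25, 95% interval -1.07 to -0.03) had the smallest unadjusted p of the 40, but did not pass over all genes (edgeR adjusted p = 0.89). It stayed negative under all 17 alternatives, from -0.69 to -0.32, with adjusted p-values of 0.43 to 0.998, and was nearest to 0 with the stellate and fibroblast covariate. Psme2 (chromosome 14, 55587441 to 55591113), the PA28 beta partner, was at 42.1, 60.4, 40.3 and 74.9 CPM in HFD and 18.4, 44.0, 48.5 and 26.9 CPM in chow. The Psme2 groups overlapped, 2 of 4 HFD libraries were above the highest chow library, and the log2 fold change was 0.66 (SE 0.48, edgeR adjusted p = 0.99). Per kilobase of exon, Psme1 over Psme2 was 1.92, 2.22, 3.89 and 1.61 in HFD and 10.8, 4.24, 3.47 and 6.23 in chow, so only HFD replicate 7 reached into the chow range. This ratio has no test here, and 28.3% of the words of Psme2 also occur in Psme2b, which had 39.4 CPM on average in HFD and 43.5 CPM in chow. With Psme2b added to Psme2, an alternative chosen after seeing the data, the log2 fold change was 0.27 (SE 0.36).

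The immunoproteasome catalytic subunits overlapped between diets. Psmb8 (chromosome 17, 34197721 to 34201454), the immune beta-5 subunit, was at 20.9, 41.7, 21.5 and 23.7 CPM in HFD and 57.5, 32.9, 30.5 and 24.3 CPM in chow. For Psmb8, 3 of 4 HFD libraries were below the lowest chow library while HFD replicate 6 was above all chow libraries but replicate 1, and the log2 fold change was -0.43 (SE 0.55). Psmb9 (chromosome 17, 34181987 to 34187764), the immune beta-1 subunit, was at 22.05, 28.5, 49.7 and 25.7 CPM in HFD and 31.7, 67.0, 52.7 and 10.4 CPM in chow, where it had both its highest and its lowest library. Psmb10 (chromosome 8, 105935735 to 105938444), the immune beta-2 subunit, was at 6.16, 5.56, 22.3 and 6.03 CPM in HFD and 5.84, 12.6, 5.60 and 13.9 CPM in chow. The log2 fold changes of Psmb9 and Psmb10 were -0.36 (SE 0.58) and 0.08 (SE 0.97), with edgeR adjusted p-values of 0.99 and 0.997.

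Each immune subunit replaces a constitutive one, Psmb8 for Psmb5, Psmb9 for Psmb6 and Psmb10 for Psmb7, so the share of the immune member in each pair was computed per kilobase of exon. Psmb8 made up 32.9%, 79.0%, 71.1% and 35.5% of its pair in HFD and 87.2%, 94.9%, 22.6% and 66.2% in chow. Psmb9 made up 61.2%, 66.6%, 78.0% and 74.9% in HFD and 92.3%, 86.2%, 75.1% and 36.0% in chow. Psmb10 made up 62.1%, 40.3%, 49.96% and 28.2% in HFD and 37.5%, 55.2%, 17.5% and 35.9% in chow. The ranges overlapped in each pair, the means differed by less than the SD within a diet, and no share was tested. The shares depend on the exon lengths used. These were 3381 bases for Psmb8 and 899 for Psmb5, 3660 and 1872 for Psmb9 and Psmb6, and 1705 and 3421 for Psmb10 and Psmb7. By CPM alone, Psmb8 was above Psmb5 in every library. Its share per kilobase was still 32.9% and 35.5% in HFD replicates 5 and 8 and 22.6% in chow replicate 3. Psmb5 (chromosome 14, 54614119 to 54618022), the constitutive beta-5 subunit, was at 11.3, 2.95, 2.32 and 11.4 CPM in HFD and 2.25, 0.468, 27.8 and 3.30 CPM in chow, and 54.1% of its words occur in other genes, mainly pseudogenes listed at 0. Psmb6 (chromosome 11, 70525367 to 70527858), the constitutive beta-1 subunit, was at 4.42 to 7.29 CPM in HFD and 1.35 to 9.44 CPM in chow. Psmb7 (chromosome 2, 38588036 to 38644087), the constitutive beta-2 subunit, was at 7.55, 16.5, 44.9 and 30.7 CPM in HFD and 19.5, 20.6, 53.1 and 49.8 CPM in chow, with fractional counts in all 8 libraries. Psmb7 shares 405 exon bases with Nek6 on the opposite strand, which averaged 144 CPM in HFD and 162 CPM in chow. With no strand information stated, those reads cannot be assigned with certainty, which also bears on the Psmb10 share.

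**Figure D3:**
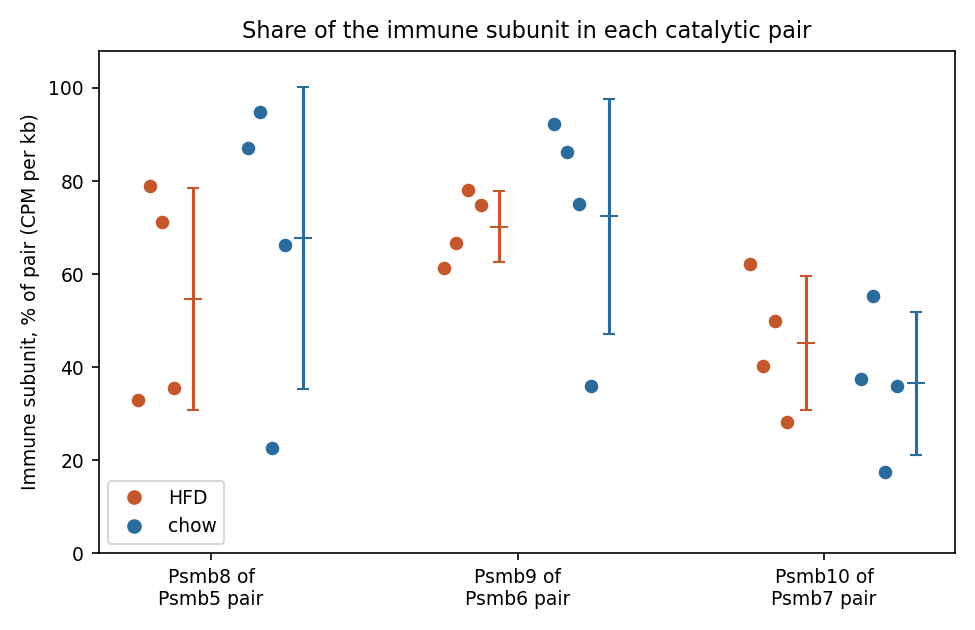
Share of the immune subunit in each catalytic pair, in percent of the summed CPM per kilobase of exon, with 1 point per library (HFD left, chow right) and the mean ± SD beside the points, n = 4 each. The points of the diets overlap in all 3 pairs, chow spreads more widely than HFD for Psmb8 and Psmb9, and the shares have means of 54.6% in HFD and 67.7% in chow for Psmb8, 70.2% and 72.4% for Psmb9, and 45.2% and 36.5% for Psmb10.

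In the alpha ring, which gates the barrel, 4 of 7 genes were higher and 3 lower in HFD, none past the test. Psma5 (chromosome 3, 108256926 to 108279974), the alpha-5 subunit, had 13.7, 18.9, 21.7 and 7.63 CPM in HFD and 58.2, 36.7, 31.3 and 29.0 CPM in chow. The highest HFD library was below the lowest chow library, and the log2 fold change was -1.32 (SE 0.60, 95% interval -2.59 to -0.06; edgeR adjusted p = 0.89), between -1.53 and -1.03 under the 17 alternatives. Of its words 50% occur in other genes, with 33.6% in Gm8394, which had 0 counts in all libraries. Psma3 (chromosome 12, 70974621 to 70996347), the most abundant alpha subunit by CPM, was at 91.4, 43.8, 73.1 and 124 CPM in HFD and 63.8, 51.8, 128 and 61.1 CPM in chow, with a log2 fold change of 0.12 (95% interval -0.72 to 0.97). Psma6, the highest alpha gene per kilobase, was at 29.3 ± 8.75 CPM per kb in HFD and 27.2 ± 13.8 CPM per kb in chow. Psma4 had a log2 fold change of 0.08 (SE 0.52). Psma7 was at 36.4 ± 10.4 CPM in HFD and 21.8 ± 14.9 CPM in chow, Psma1 at 29.0 ± 20.2 and 50.2 ± 17.5 CPM, and Psma2 at 21.99 ± 1.73 and 35.9 ± 17.98 CPM, in the same order of diets. These last 3 had SEs of 0.58 to 0.60 and unadjusted p-values of 0.20 to 0.24.

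Among the noncatalytic beta subunits, which build the inner rings, Psmb1 and Psmb3 spread more widely over the libraries than Psmb2 and Psmb4. Psmb4 (chromosome 3, 94884093 to 94886961) was at 14.3, 30.6, 19.8 and 45.0 CPM in HFD and 29.7, 26.9, 90.4 and 21.7 CPM in chow. Its log2 fold change of -0.62 (SE 0.60) was 0.07 without chow replicate 3. Psmb3 (chromosome 11, 97703399 to 97713500) was at 6.16, 4.69, 7.59 and 7.43 CPM in HFD and 30.6, 1.87, 9.74 and 1.42 CPM in chow. The HFD libraries of Psmb3 lay close together and inside the wider chow range. Psmb1 was at 2.95 to 48.0 CPM in HFD and 2.92 to 19.7 CPM in chow, and Psmb2 at 7.75 to 21.5 CPM in HFD and 14.6 to 27.3 CPM in chow.

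**Figure D4:**
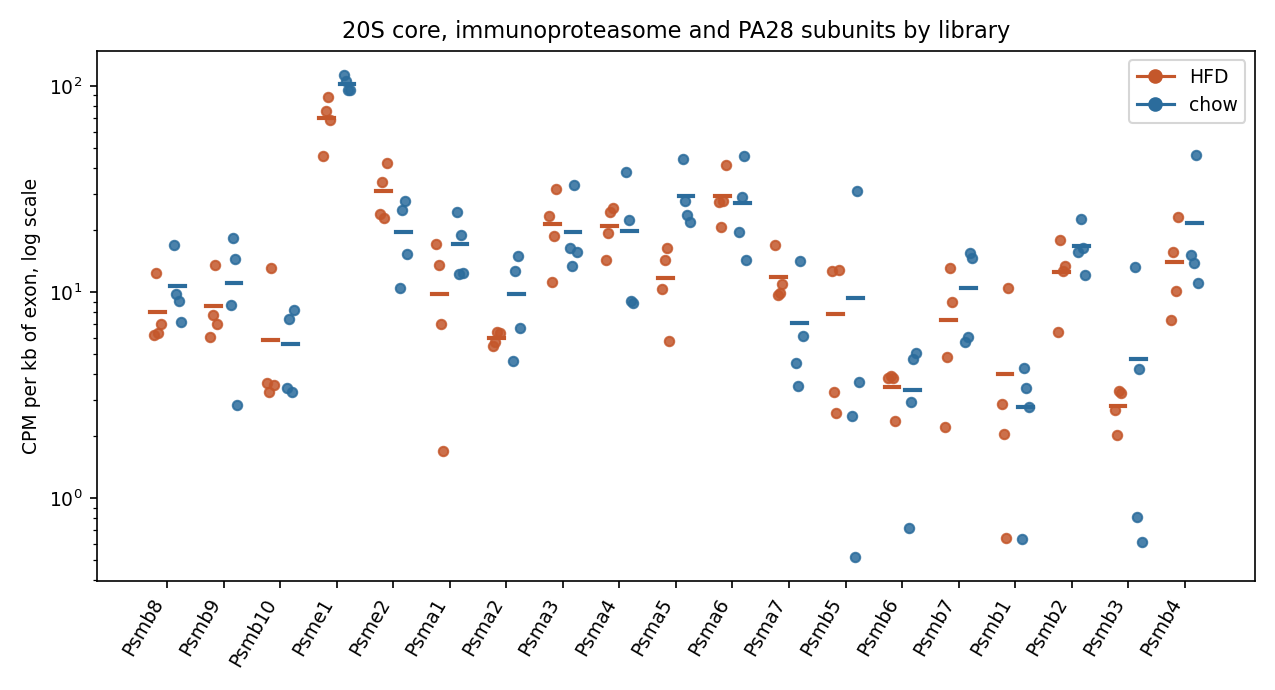
CPM per kilobase of exon on a log scale for the immunoproteasome, PA28, alpha ring and beta ring genes, with 1 point per library (HFD left, chow right, n = 4 each) and a bar at the mean. Psme1 is the highest and its diets do not overlap, Psma5 is the other gene whose diets separate, and Psma1, Psmb5, Psmb1 and Psmb3 spread over more than 10-fold within a diet.

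In the regulatory particle, 5 of the 6 ATPase genes were higher in HFD and 1 was lower (median log2 fold change 0.55). With the stellate and fibroblast covariate the ATPase count turned to 2 higher and 4 lower (median -0.093), and without HFD replicate 7 it was 4 higher and 2 lower (median 0.22). That covariate partly runs with diet, so its fit separates diet from stellate and fibroblast transcripts poorly. Of the 4 non-ATPase genes 1 was higher and 3 lower (median -0.20). None passed the test. These ATPases form the ring that unfolds substrates and threads them into the barrel. Psmc1 (chromosome 12, 100110154 to 100123405) was at 41.1, 22.9, 29.9 and 42.0 CPM in HFD and 6.74, 22.5, 14.3 and 5.43 CPM in chow. All HFD libraries of Psmc1 were above all chow libraries, the closest 2 by under 1 CPM, with a log2 fold change of 1.47 (SE 0.68, 95% interval 0.04 to 2.89; edgeR adjusted p = 0.91). It ranged from 1.20 to 1.94 under the 17 alternatives. Psmc2 (chromosome 5, 21785283 to 21803787), the highest of the ATPases by CPM and the 1 with a negative sign, was at 35.6, 27.8, 47.0 and 59.4 CPM in HFD and 40.2, 27.2, 101 and 40.4 CPM in chow. Its log2 fold change of -0.29 (SE 0.50) was 0.24 without chow replicate 3. Psmc4 was the least even of the 40 among genes detected in every library, at 1.21 to 52.9 CPM in HFD and 0.207 to 29.3 CPM in chow. Psmc3, Psmc5 and Psmc6 had log2 fold changes of 0.60 (SE 1.04), 0.49 (SE 0.63) and 0.47 (SE 0.64). Leaving out 1 library took Psmc3 to 0.23 without HFD replicate 7, Psmc5 to 0.047 without HFD replicate 5 and Psmc6 to 0.16 without chow replicate 1.

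Of the non-ATPase subunits, Psmd1 and Psmd2 are the large scaffold proteins, Psmd4 is a ubiquitin receptor and Psmd3 belongs to the lid. Psmd2 (chromosome 16, 20651652 to 20663414) was at 37.9, 14.2, 9.27 and 21.3 CPM in HFD and 23.6, 92.3, 61.2 and 16.0 CPM in chow. The groups overlapped, the log2 fold change was -1.22 (SE 0.64, edgeR adjusted p = 0.95), and it was -0.70 without chow replicate 2. Psmd1 (chromosome 1, 86064387 to 86139151) was at 62.8, 70.5, 124 and 37.0 CPM in HFD and 83.3, 63.7, 102 and 47.0 CPM in chow, a log2 fold change of -0.01 (95% interval -0.88 to 0.86). Psmd3 was at 1.21 to 15.9 CPM in HFD and 2.34 to 19.3 CPM in chow. Psmd4 was at 5.96, 6.60, 1.05 and 7.83 CPM in HFD and 15.1, 1.09, 0.207 and 1.18 CPM in chow, where chow replicate 1 was far above the other chow libraries.

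Related genes outside the 40 did not pass the test either. The counts by list below stand beside 4925 higher and 5204 lower of all 10129 genes tested, and no list was tested as such. Of the other class I and class I-like chains 9 of 15 were tested, 4 of them higher and 5 lower (median log2 fold change -0.16). H2-T24 was at 23.1 ± 10.5 CPM in HFD and 48.8 ± 15.3 CPM in chow (SD, n = 4), and the gene listed as H2-Q8 at 20.7 ± 27.2 CPM in HFD and 4.26 ± 2.00 CPM in chow. The list for the loading pathway held chaperones, peptidases, Sec61 channel genes and the membrane fusion genes Sec22b and Stx4a. In it 10 of 17 tested genes were higher, with a median of 0.29. Hspa5, the main chaperone of the endoplasmic reticulum, was at 751, 612, 798 and 530.4 CPM in HFD and 416, 361, 643 and 581 CPM in chow, a log2 fold change of 0.43 (SE 0.20, edgeR adjusted p = 0.91). Canx, which encodes the lectin chaperone calnexin that holds new heavy chains, was at 564 ± 21.4 CPM in HFD and 461 ± 96.5 CPM in chow. Of the regulators of class I transcription 5 of 18 tested were higher and 13 lower, with a median of -0.19. Atf1, a factor that binds TGACG-type sites, was at 167, 270, 284 and 199 CPM in HFD and 357, 375, 467 and 273 CPM in chow. HFD replicate 7 was above the lowest chow library, and the log2 fold change of Atf1 was -0.68 (SE 0.23, edgeR adjusted p = 0.75). Nfkb1, a subunit of NF-kB, was at 128 ± 43.5 CPM in HFD and 192 ± 21.6 CPM in chow. The list of remaining proteasome subunits and caps had 10 of 15 tested genes higher with a median of 0.16. It also held Psmd5, Psmd9 and Psmd10, which are assembly chaperones and are counted in the assembly list as well. Psmd12, a lid subunit, was at 25.0 ± 10.7 CPM in HFD and 59.8 ± 27.1 CPM in chow, with Psmd6 at 9.15 ± 5.32 and 24.4 ± 11.98 CPM. The list of assembly and associated factors had 9 of 16 tested genes higher with a median of 0.04. Its count and median include Rpn1 (log2 fold change -0.80), which encodes ribophorin I and is not a proteasome factor. Vcp, the segregase that feeds the proteasome, was at 84.4 ± 31.3 CPM in HFD and 136 ± 39.9 CPM in chow.

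The 5 genes whose log2 CPM was most like that of Psmb8 over the 8 libraries were Eif3h, Parp3, Nbeal1, Map3k3 and Serbp1, none of them among the 40. Pearson's r was 0.91 to 0.953 and Spearman's rho 0.762 to 0.929, with exact permutation p-values of 0.000694 to 0.00325 for r and 0.00223 to 0.0368 for rho. Adjusted over the 10128 genes compared, none passed (adjusted p = 0.622 to 0.672 for r and 0.825 to 0.882 for rho). Without the 2 libraries farthest from the median of Psmb8, HFD replicate 6 and chow replicate 1, r was 0.578 to 0.837.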

How the data were processed

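RNA-seq of islet macrophages was analysed in 8 libraries, 4 per diet. The deposited values are expected counts per Ensembl gene, not scaled between libraries, made with FastQC, Trim Galore and STAR on GRCm38, per the submitters' processing notes. For these tools the versions, and also the counting program and the annotation, were not given in the sources used here. Counts were rounded to whole numbers. Libraries were amplified from 500 pg of RNA with the Ovation kit, per the labels' protocols. Between 7.66% and 8.32% of the values above 0 were fractional.

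Diets were compared with edgeR 4.0.16 (TMM scaling, filterByExpr, robust quasi-likelihood test, two-sided, Benjamini-Hochberg at 0.05 over 10129 genes) in R 4.3.3. Alternatives used limma 3.58.1, DESeq2 1.42.0 and the settings in the closing section. Exon lengths, coordinates (1-based) and shared 50-base words came from GENCODE M21 on GRCm38. Each library pooled extracts of 2 mice, so p-values measure the spread between such libraries and not between single mice. All pairs of libraries differed by more than sampling noise (lowest chi-square per degree of freedom 37.9). In simulations of this comparison with 10129 genes, 7.90% of 2-fold, 33.9% of 4-fold and 60.2% of 8-fold changes were called. Each run had 200 changed genes, drawn only from genes above a minimum mean count. The rates therefore hold for that number of true changes and do not cover genes near the floor such as Tap2. The floor for a count of 0 covers counting error only, and intervals of fold changes include the spread between libraries.

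The genes and lists were chosen with earlier results of these data known, so no list is tested as such. Values per library are given for the class I, loading, immunoproteasome and PA28 genes, and elsewhere for the highest gene, the gene with the smallest p and genes whose diets do not overlap, and some others named after their values were seen; up to 2 genes with the smallest p are named per related list.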

Additional observations from a re-analysis of the deposited data

Results flagged for a closer look

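In 10 of the 80 diet groups of 4 libraries (40 genes, 2 diets), 1 library stood apart from the other 3 by Dixon's test on CPM. Chance alone marks about 1 in 20 such groups if values are normally distributed, which CPM need not be. The share over all genes tested was not computed, so the count is not read as an excess in these genes. In HFD, replicate 8 was at 3801 CPM for B2m (others 3214 to 3304) and at 4.42 CPM for Psmb6 (others 7.15 to 7.29). HFD replicate 7 was at 22.3 CPM for Psmb10 (others 5.56 to 6.16) and at 17.9 CPM for Psmc3 (others 7.47 to 8.74), and HFD replicate 6 was at 41.7 CPM for Psmb8 (others 20.9 to 23.7). In chow, replicate 3 was at 128 CPM for Psma3 (others 51.8 to 63.8), at 27.8 CPM for Psmb5 (others 0.468 to 3.30) and at 90.4 CPM for Psmb4 (others 21.7 to 29.7). Chow replicate 2 was at 149 CPM for H2-T23 (others 74.6 to 85.8), and chow replicate 1 was at 15.1 CPM for Psmd4 (others 0.207 to 1.18).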

How the results depend on the processing

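None of the 40 genes was called under any of 17 alternatives (adjusted p 0.418 to 1.0, with none given by DESeq2 for Tap2 and Psmd4), 17 kept their sign throughout, and 23 did not; the causes were not tested. Genes called over the whole table were 45 with no filter, 28 with DESeq2, 1 with limma-voom, and 0 to 11 with 1 library left out, the 11 without HFD replicate 8. Signs turned with upper quartile scaling for Nlrc5 (0.023) and Psmd1 (0.028), and with library totals for Nlrc5 (0.029) and Psmd1 (0.089). With the stellate and fibroblast covariate they turned for H2-Q7 (-0.51), H2-M3 (-0.62), Nlrc5 (0.40), Psmb8 (0.11), Psmb10 (-0.21), Psmb6 (-1.15), Psmb3 (0.92), Psmc3 (-0.11), Psmc4 (-0.24) and Psmc6 (-0.076), and the median log2 fold changes were -0.33 for the class I genes, -0.21 for the standard subunits and -0.21 for all proteasome genes. With limma-voom they turned for Psmb9 (0.0076), Psmb10 (-0.20), Psmb5 (0.77), Psmb1 (-0.15), Psmb3 (0.64) and Psmd1 (0.065). With 1 library left out, the median ran from -0.67 to -0.0049 for the immunoproteasome and PA28 genes, lowest in size without chow replicate 2, and from -0.34 to 0.070 for all proteasome genes, lowest without HFD replicate 7. Signs then turned for H2-M3 (-0.021 to 0.65), H2-Q7 (-0.70 to 0.57), Nlrc5 (-0.72 to 0.24), Psma3 (-0.14 to 0.49), Psma4 (-0.17 to 0.62), Psma6 (-0.11 to 0.47), Psmb1 (-0.59 to 0.87), Psmb10 (-0.68 to 0.31), Psmb3 (-1.13 to 0.56), Psmb4 (-0.97 to 0.070), Psmb5 (-0.67 to 1.80), Psmb6 (-0.29 to 0.30), Psmc2 (-0.51 to 0.24), Psmc4 (-0.16 to 1.57), Psmd1 (-0.38 to 0.21), Psmd3 (-1.05 to 0.17), Psmd4 (-0.11 to 2.66), Tap2 (-0.85 to 0.55) and Tapbp (-0.039 to 0.32). Of the 21 genes that kept 1 sign whichever library was left out, 17 moved by over 1.5 times, and Psme1, Psme2, Psma5 and Psmc1 did not. With a minimum of 5 CPM in 4 libraries, Tap2 and Psmb5 were not tested. No paired analysis was possible because the diets share no replicate numbers.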
